A study of Rattus norvegicus with 6 samples.

Results

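The genes described here make, process, export or degrade RNA or build ribosomes. They were taken from the array's named genes by the start of the gene symbol: hnRNP proteins (Hnrn), SR splicing factors (Srs), spliceosome proteins (Sf3, Snrp, Lsm, Prpf), RNA helicases (Ddx, Dhx), RBM proteins (Rbm), cleavage and poly(A) factors (Cpsf, Pabp), nucleolar proteins (Ncl, Npm, Nop, Fbl), exosome subunits (Exosc) and RNA polymerase subunits (Polr). The rule found 59 of 3158 named genes, measured by 75 clones; 4 spots that carry both Rbmxl1b and Rbmxl1 were not counted. The tumor side of the study consists of JA, JB and Amy, 3 cell lines from reflux-induced tumors of the rat esophagus. The normal side is a 1:1 pool of Normal1 and Normal2, 2 cell lines of normal esophagus; no age, sex, strain or passage is given in the sources used here. Total RNA of each line was hybridized against the pool on 2 two-colour cDNA arrays, once with the line in Cy3 and once in Cy5. Both arrays of a line carry the same RNA, which leaves 3 replicates, 1 per line, all set against a single pool.

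A protein-coding transcript is made by RNA polymerase II, bound by hnRNP proteins, spliced by small nuclear ribonucleoproteins with the help of SR proteins and helicases, then cleaved and polyadenylated before it leaves the nucleus. The nucleolus is the site of ribosomal RNA synthesis and ribosome assembly, with nucleolin, nucleophosmin and the box C/D small nucleolar ribonucleoproteins among its abundant proteins. The exosome trims and degrades RNA from its 3′ end. Growing and dividing cells as a rule make more ribosomes than resting cells.

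Values are log ratios, given here as line over pool. This direction is likely, not settled, since it rests only on how the sample titles order the names, and base 2 was assumed for the logarithm. Array medians over all 7180 features (a feature is a named gene or a clone without a single gene name) lay between -0.17 and -0.05 (log2). Correlations over all features between the dye-swapped arrays of 1 line were 0.815 to 0.888. The values of swapped arrays run the same way as deposited. No spot intensities were used, so a large ratio cannot be told from a bound set by a dim channel. Among markers of other cell types, 8 of 8 fibroblast, 7 of 8 leukocyte, 4 of 4 muscle and 3 of 3 endothelial genes were lower in the tumor lines, with median log2 ratios of -4.31, -3.71, -3.68 and -1.53. The remaining leukocyte gene, Tyrobp, was higher (0.67, adjusted p = 0.00807). Of the leukocyte genes called lower, Cd53 averaged 0.73 on the Cy3 arrays and -1.68 on the Cy5 arrays, and Cd3e stood at only -0.45. All 6 measured genes of dividing cells were higher, with a median of 2.81. Of epithelial markers, Lgals7 and Cstb of squamous epithelium were lower (-5.82 and -0.68), Cdh3 was higher (1.98) and Krt8, at 0.41 ± 0.40 (SD, n = 3 lines), did not pass the test (adjusted p = 0.111). The esophageal label could be set against these 4 epithelial markers only. The pool is described as cell lines, yet most leukocyte and all measured muscle and endothelial markers were higher in it than in the tumor lines. Which cells the pool held was not tested. The part of these shifts in the results below was not tested. In bulk RNA, fewer cells of a type and less RNA per cell cannot be told apart.

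The first comparison asked which of the 59 genes stood above or below the normal pool across JA, JB and Amy together. Of the 59, 21 passed as higher, 10 passed as lower and 28 did not pass (limma, mean of 3 lines against 0, adjusted p under 0.05 over all features). Across all features 20.7% were higher, 32.8% were lower and 53.5% were called in either direction, against 35.6%, 16.9% and 52.5% of the RNA genes. The share called in either direction was thus close to that of all features, while the share called higher was larger and the share called lower smaller. Should the ratios run as pool over line, higher and lower trade places here and in every comparison below, with 16.9% of the 59 higher and 35.6% lower. The median log2 ratio was 0.26 in the 59 genes and -0.12 in all features. The means of the 59 ran from -1.73 (Polr2k) to 2.49 (Ddx39a), and those of all features from -9.52 to 6.01. At a mean of at least 1 in size, 6 were higher (Ddx39a, Polr2c, Ncl, Sf3b5, Srsf7 and Hnrnpl) and 4 were lower (Polr2k, Snrpd1, Sf3b4 and Ddx17). Those are 10.2% and 6.78% of the 59, against 7.17% and 14.8% of all features. Centring each array on its median, which takes out the shift of -0.12 in the median of all features, gave 25 higher and 9 lower (42.4% and 15.3%, against 25.7% and 27.6% of all features). Without JA, 13 were higher and 5 lower (22% and 8.47%), and the shares of all features fell as well, to 9.87% and 19%. Without Amy, 17 and 6 were called (28.8% and 10.2%), against 14% and 23.6% of all features. With a spread given to the pool, 11 and 4 were called (18.6% and 6.78%), against 9.29% and 18.1%.

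**Figure D1:**
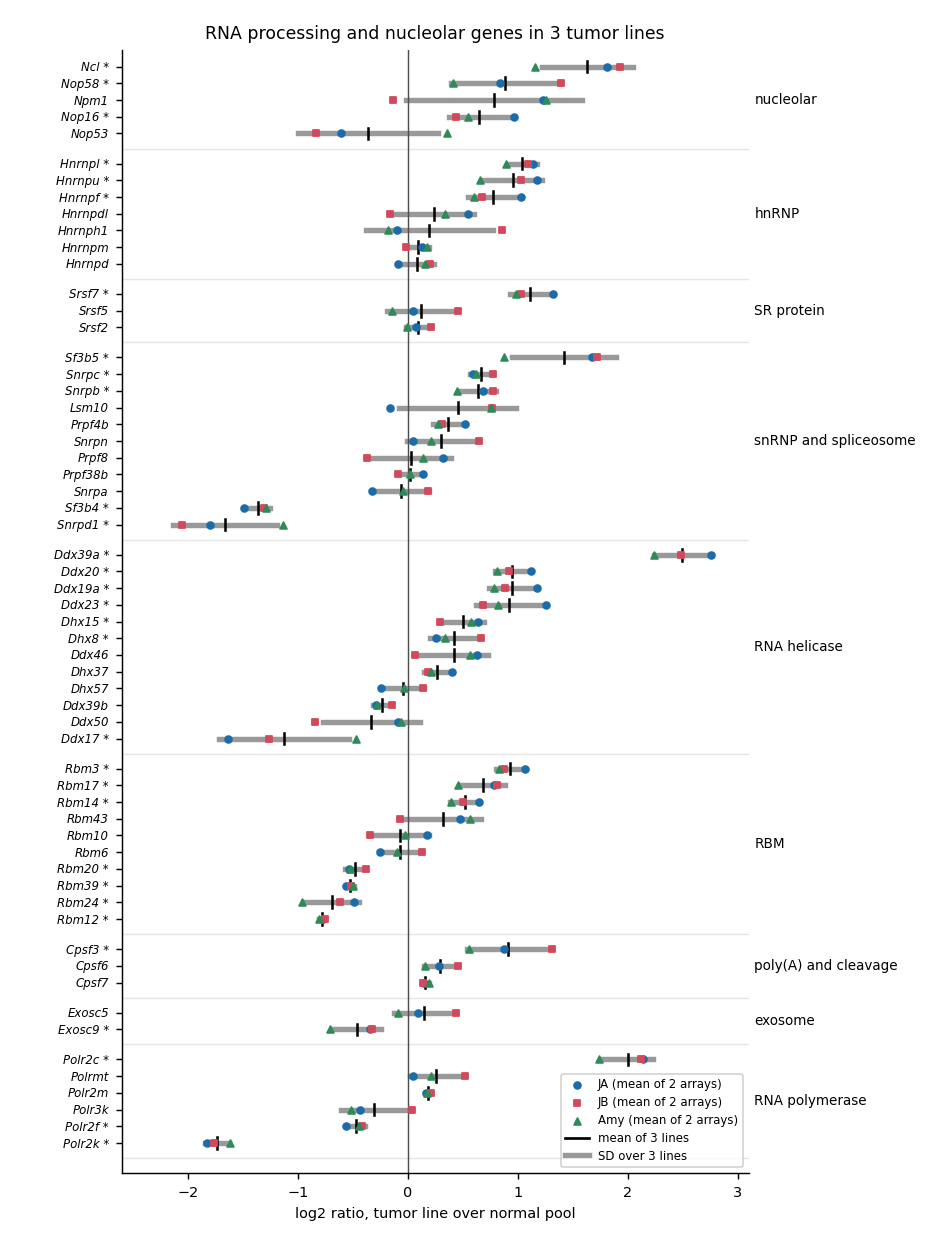
Log2 ratios of all 59 genes by class: points are the line means of 2 arrays for JA, JB and Amy, the black bar is the mean of the 3 lines and the grey bar the SD over the 3 lines; an asterisk marks an adjusted p under 0.05 (limma). Ddx39a and Polr2c lie farthest to the right at 2.49 and 2.001, and Polr2k and Snrpd1 farthest to the left at -1.73 and -1.66.

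Promoter sequences of genes from several classes are given as a description, and their part in the ratios was not tested. RefSeq windows of assembly GRCr8, from 250 bases before to 50 bases after a gene start, were found for 55 of the 59 genes. The letters CCGGAA, the core of many ETS-factor sites, stood on either strand (CCGGAA or TTCCGG) in the windows of 24 of the 55 genes (43.6%), against 731 of 2591 other named genes on the array (28.2%) and 16.5% of all genes in the table. By result they stood in 10 of 20 genes that were higher, 2 of 7 that were lower and 12 of 28 that did not pass. The E-box letters CACGTG, which read the same on both strands, were in 5 of 55 genes (9.09%) against 10.4% of other named genes. TATAAA (or TTTATA) was in 8 of 55 (14.5%) against 8.61%. Split by call, CACGTG stood in 0 of 20 higher genes, 1 of 7 lower and 4 of 28 that did not pass. For TATAAA these were 2 of 20, 1 of 7 and 5 of 28. None of these motifs contains another, and a match is a description of the sequence only. The 250 bases before the start are shown for 3 genes that were higher and 1 that was lower, as examples of where the letters lie, with CCGGAA or TTCCGG in capitals. Ddx39a (chr19:41331414-41331663, minus strand) encodes an mRNA export helicase, Nop58 (chr9:68614824-68615073, plus strand) a snoRNP core protein, Cpsf3 (chr6:46564605-46564854, plus strand) the cleavage endonuclease of pre-mRNA, and Polr2f (chr7:112592814-112593063, plus strand) an RNA polymerase subunit. All are written 5′ to 3′ on the strand of the gene.
Ddx39a: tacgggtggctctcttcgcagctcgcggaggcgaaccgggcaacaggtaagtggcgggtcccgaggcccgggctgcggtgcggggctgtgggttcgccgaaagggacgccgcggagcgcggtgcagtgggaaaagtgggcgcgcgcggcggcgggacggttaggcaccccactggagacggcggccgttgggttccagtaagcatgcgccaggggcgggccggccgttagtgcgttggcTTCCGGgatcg
Nop58: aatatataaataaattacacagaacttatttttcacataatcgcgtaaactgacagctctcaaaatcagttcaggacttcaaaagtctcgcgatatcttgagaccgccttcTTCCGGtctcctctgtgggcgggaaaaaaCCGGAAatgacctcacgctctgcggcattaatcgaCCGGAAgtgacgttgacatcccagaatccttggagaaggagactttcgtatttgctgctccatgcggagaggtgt
Cpsf3: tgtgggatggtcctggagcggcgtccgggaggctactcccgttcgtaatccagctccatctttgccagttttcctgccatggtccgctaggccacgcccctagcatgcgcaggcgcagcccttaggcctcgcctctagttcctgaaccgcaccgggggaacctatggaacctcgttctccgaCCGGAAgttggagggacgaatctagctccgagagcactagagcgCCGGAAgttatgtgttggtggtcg
Polr2f: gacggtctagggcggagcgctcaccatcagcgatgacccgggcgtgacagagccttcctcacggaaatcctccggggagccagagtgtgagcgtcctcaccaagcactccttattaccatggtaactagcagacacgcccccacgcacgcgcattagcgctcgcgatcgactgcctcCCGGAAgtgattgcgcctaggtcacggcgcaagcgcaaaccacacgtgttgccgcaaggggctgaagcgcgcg
In Nop58, which was higher, the letters occur 3 times, with first bases 139, 110 and 75 bases before the start. Ddx39a has them once, 11 bases before the start, and Cpsf3 has them 68 and 24 bases before it. Polr2f, which was lower, has them once at 73 bases, so genes of both directions carry them.

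Nucleolar genes were mostly higher: 3 of 5 passed as higher and none as lower, with a median of 0.78. Those shares, 60% and 0%, stand against 20.7% and 32.8% of all features. Nucleolin (Ncl), an abundant nucleolar protein of ribosomal RNA synthesis and packaging, stood at 1.74 and 1.88 in JA, 2.05 and 1.81 in JB, and 0.999 and 1.32 in Amy, giving the array with the line in Cy3 first here and below. All 6 arrays were above 0, and JA and JB lay above Amy on both. The mean was 1.63 ± 0.42 (SD, n = 3 lines), or 3.1-fold (adjusted p = 0.00215). Nop58, a core protein of box C/D snoRNPs, which guide ribosomal RNA methylation, stood at 0.71 and 0.98 in JA, 1.26 and 1.53 in JB, and 0.26 and 0.57 in Amy. It was highest in JB and lowest in Amy on both dyes, with a mean of 0.89 ± 0.49 (adjusted p = 0.0189; 0.0995 without JA). Without JA the shares of all features called fell as well, to 9.87% higher and 19% lower. A call lost without JA, here and below, thus does not show that JA had the largest ratio. Nop16, a ribosome assembly factor, stood at 0.74 and 1.20 in JA, 0.38 and 0.50 in JB, and 0.42 and 0.67 in Amy. It was highest in JA, and its mean of 0.65 ± 0.28 passed (adjusted p = 0.0174) but not without JA (0.0846) or Amy (0.0629).

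Nucleophosmin (Npm1), a chaperone of ribosome assembly, had the widest gap between dyes of the 59 genes. Its single clone stood at 0.19 and 2.26 in JA, -2.48 and 2.21 in JB, and 1.15 and 1.37 in Amy. The arrays with the line in Cy5 were all above 1, whereas those with the line in Cy3 ranged from far below 0 to above 1, and the 2 JB arrays lay 4.69 apart. The mean, 0.78 ± 0.80 (SD, n = 3 lines), did not pass (adjusted p = 0.0829). Without the JB array in Cy3 it was 1.57 and passed as higher (adjusted p = 0.00445), as it did without JB at 1.24 (0.00139) and on the Cy5 arrays (0.00271). Its average over the 3 lines was -0.38 for Cy3-labelled and 1.95 for Cy5-labelled lines. Nop53, a large-subunit assembly factor, stood at -0.72 and -0.50 in JA, -0.15 and -1.53 in JB, and 0.25 and 0.47 in Amy. Both JA and both JB arrays were below 0 and both Amy arrays above, and the mean of -0.36 ± 0.64 did not pass (adjusted p = 0.275). Without Amy it was -0.72 and passed as lower (adjusted p = 0.0374). Fbl and Nop56 were not analysed here.

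The hnRNP proteins, which coat nascent transcripts and steer splicing, were higher or near the pool. Of 7 genes, 3 were higher (42.9%), none was lower and all 7 means were above 0. Among all features 20.7% were higher, 32.8% were lower and 43.0% had a mean above 0. Hnrnpl, a regulator of alternative splicing, stood at 0.78 and 1.497 in JA, 0.73 and 1.46 in JB, and 0.68 and 1.10 in Amy. Each line gave a larger ratio in Cy5 than in Cy3, and all arrays were above 0; the mean was 1.04 ± 0.13 (SD, n = 3 lines; adjusted p = 0.00227). Hnrnpu, a scaffold-attachment protein of the nuclear matrix, stood at 1.26 and 1.08 in JA, 1.14 and 0.92 in JB, and 0.72 and 0.59 in Amy. The order JA, JB, Amy held on both dyes, although JA and JB lay close, and the mean was 0.95 ± 0.27 (adjusted p = 0.00507). Hnrnpf, which binds G-rich sequence near exons, stood at 1.10 and 0.96 in JA, 0.63 and 0.73 in JB, and 0.73 and 0.48 in Amy. JA was the highest line, the mean was 0.77 ± 0.23 (adjusted p = 0.00782), and the call was lost without JA (0.0517).

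The close relative of Hnrnpf, Hnrnph1, did not share its ratio in all lines. Hnrnph1 stood at -0.28 and 0.091 in JA, 1.04 and 0.68 in JB, and -0.29 and -0.066 in Amy. JB was the only line with both arrays above 0, and 1 of its 3 clones carried most of that, and the mean of 0.20 ± 0.58 did not pass (adjusted p = 0.514). The AU-rich element binding protein Hnrnpd and its relative Hnrnpdl had means of 0.087 ± 0.16 and 0.24 ± 0.36, and the splicing regulator Hnrnpm 0.10 ± 0.10; none of these passed (adjusted p = 0.584, 0.278 and 0.513). cDNA clones of related genes such as Hnrnpf and Hnrnph1 can share signal, which was not tested. Hnrnpa1 was not analysed here.

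Of the SR proteins, which bind exonic enhancers and recruit the spliceosome, 1 of 3 was higher (33.3%, against 20.7% of all features). None was lower, against 32.8% of all features. Srsf7, which also takes part in mRNA export, stood at 1.51 and 1.13 in JA, 1.29 and 0.77 in JB, and 1.06 and 0.90 in Amy. All arrays were above 0 and JA was highest on both dyes; the mean was 1.11 ± 0.18 (SD, n = 3 lines), or 2.16-fold (adjusted p = 0.00229). Srsf2 and Srsf5 stayed near 0, at 0.094 ± 0.11 and 0.12 ± 0.31, and did not pass (adjusted p = 0.529 and 0.546). Srsf1 was not analysed here.

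Among proteins of the spliceosome's small nuclear ribonucleoproteins, 3 of 11 were higher and 2 lower. The shares, 27.3% and 18.2%, stand against 20.7% and 32.8% of all features, so calls in both directions were common on these arrays. Subunits of 1 complex lay on opposite sides of the pool. Sf3b5 and Sf3b4 are both subunits of SF3b, the part of the U2 particle that holds the branch site. Sf3b5 stood at 1.69 and 1.65 in JA, 1.65 and 1.79 in JB, and 0.67 and 1.09 in Amy. JA and JB were above Amy on both dyes, by at least 0.5 in each orientation, and the mean was 1.42 ± 0.47 (SD, n = 3 lines; adjusted p = 0.004). Sf3b4 stood at -1.21 and -1.77 in JA, -1.06 and -1.55 in JB, and -1.31 and -1.26 in Amy. All 6 arrays were below -1, with a mean of -1.36 ± 0.11 (adjusted p = 0.00101), and no array of Sf3b4 overlapped an array of Sf3b5. The log2 ratio of Sf3b5 exceeded that of Sf3b4 by 1.98 to 3.42 over the 6 arrays, which shows unequal change and no levels. The 2 clones of Sf3b4 differed in size, at -2.26 and -0.46, and those of Sf3b5 stood at 1.15 and 1.69.

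The Sm proteins, which form the ring around spliceosomal RNAs, were split in the same way. Snrpd1, the Sm protein D1, stood at -2.43 and -1.16 in JA, -2.25 and -1.85 in JB, and -1.10 and -1.17 in Amy. Every array was below -1, and the JA pair lay 1.26 apart; the mean was -1.66 ± 0.47 (SD, n = 3 lines), 3.16-fold below the pool (adjusted p = 0.00261). Snrpb, Sm protein B, had line means of 0.69 in JA, 0.77 in JB and 0.45 in Amy and a mean of 0.64 ± 0.17 (adjusted p = 0.0109). Its call was lost without JA (0.0722) and on the Cy3 arrays alone (0.103). Snrpn, whose protein is nearly the same as Sm protein B, had a mean of 0.30 ± 0.31 and did not pass (adjusted p = 0.163), but did on the Cy3 arrays (0.0103) and, at 0.52, without the JA array in Cy5 (0.0394); the clones of both genes may share signal. Snrpc, a U1 protein that helps to bind the 5′ splice site, stood at 0.61 and 0.59 in JA, 0.77 and 0.78 in JB, and 0.62 and 0.62 in Amy. Its 2 dyes agreed within 0.02 in every line and the mean was 0.66 ± 0.10 (adjusted p = 0.00736).

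The other spliceosome proteins were not called. The U1 protein Snrpa had a mean of -0.06 ± 0.26, the U5 core protein Prpf8 0.032 ± 0.36 and Prpf38b 0.023 ± 0.11. Prpf4b, a kinase of splicing factors, was above 0 on all 6 arrays with a mean of 0.37 ± 0.14 (adjusted p = 0.0514). It passed in the fit with the dye orientation as a block (0.026), which runs over 6 arrays and treats the 2 arrays of a line as correlated, not as 1 value. It also passed with centred, scaled or quantile-normalized arrays (adjusted p from 0.0231 to 0.0472). Lsm10, which replaces Snrpd1 in the U7 particle of histone mRNA processing, followed the dye. It stood at 0.87 and -1.19 in JA, 2.09 and -0.56 in JB, and 1.59 and -0.076 in Amy. Each Cy3 array was above 0 and each Cy5 array below, so its mean of 0.46 ± 0.53 (adjusted p = 0.139) describes no array. It passed as higher on the Cy3 arrays (0.00535), without JA at 0.76 (0.0381) and without the JA array in Cy5 at 0.80 (0.00532).

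**Figure D2:**
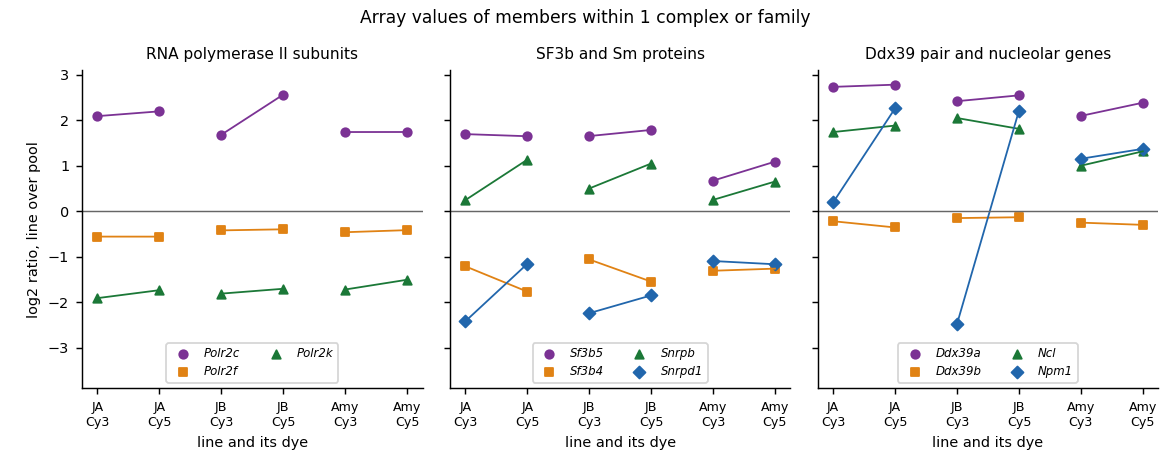
Log2 ratio (line over pool) on each of the 6 arrays for RNA polymerase II subunits, for SF3b and Sm proteins, and for the Ddx39 pair with Ncl and Npm1; a line joins the 2 dye-swapped arrays of a tumor line. Polr2c, Sf3b5 and Ddx39a lie above 0 and Polr2k, Sf3b4 and Snrpd1 below 0 on all 6 arrays, while the 2 JB arrays of Npm1 lie 4.69 apart.

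RNA helicases, which unwind or remodel RNA and RNA-protein complexes, were higher in 6 of 12 cases and lower in 1, with a median of 0.42. Those shares, 50% and 8.33%, stand against 20.7% and 32.8% of all features. Ddx39a, a helicase of mRNA export, had the largest mean ratio in size of the 59 genes. It stood at 2.73 and 2.78 in JA, 2.42 and 2.55 in JB, and 2.09 and 2.38 in Amy. No array was below 2, and the order JA, JB, Amy held on both dyes; the mean was 2.49 ± 0.26 (SD, n = 3 lines), or 5.63-fold (adjusted p = 0.000311). Its paralog Ddx39b, a helicase of splicing and export, was slightly below 0 on every array, at -0.22 and -0.36 in JA, -0.15 and -0.13 in JB, and -0.25 and -0.30 in Amy. Its mean of -0.24 ± 0.081 over 4 clones did not pass (adjusted p = 0.137), although the first clone alone, at -0.92, did (0.00368). The log2 ratio of Ddx39a exceeded that of Ddx39b by 2.35 to 3.14 on every array. Signal shared between the clones of these similar genes was not tested.

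A further 3 DEAD-box genes had nearly the same mean. Ddx20, a component of the SMN complex that assembles snRNPs, stood at 1.11 and 1.14 in JA, 0.92 and 0.92 in JB, and 0.72 and 0.89 in Amy. The dyes lay within 0.17 in each line, with a mean of 0.95 ± 0.16 (SD, n = 3 lines; adjusted p = 0.00324). Ddx19a, related to the helicase that releases mRNA at the nuclear pore, stood at 0.95 and 1.41 in JA, 0.63 and 1.14 in JB, and 0.60 and 0.96 in Amy. The Cy5 array was the higher of each pair, and the mean was 0.95 ± 0.21 (adjusted p = 0.00388). Ddx23, a U5 helicase of spliceosome activation, had line means of 1.26 in JA, 0.69 in JB and 0.82 in Amy and a mean of 0.92 ± 0.30 (adjusted p = 0.00647).

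Among the other helicases, Dhx15, which takes the spliceosome apart, had a mean of 0.50 ± 0.19 (adjusted p = 0.0248), a call lost without JA (0.129), without Amy (0.11) and on the Cy5 arrays (0.186), as well as without the Cy3 array of JA (0.093) or of JB (0.0726). Dhx8, which releases spliced mRNA, had a mean of 0.42 ± 0.22 (adjusted p = 0.0487) and lost the call without any 1 of the lines (adjusted p from 0.106 to 0.163), when any 1 of 4 of the 6 arrays was left out (from 0.0662 to 0.11) and on the Cy3 arrays (0.172). Ddx46, which acts with the U2 particle, was above 0 on all arrays at 0.42 ± 0.31 (adjusted p = 0.0741; 0.0481 with the dye orientation as a block, over 6 arrays; 0.0208 without JB; 0.0414 with centred arrays). The ribosome assembly helicase Dhx37 (0.26 ± 0.12), the nucleolar Ddx50 (-0.33 ± 0.44) and Dhx57 (-0.045 ± 0.19) did not pass (adjusted p = 0.115, 0.206 and 0.79). Dhx37 passed as higher with centred arrays (0.044) and on the Cy5 arrays (0.036).

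The helicase that was lower, Ddx17, is a coregulator of transcription that also takes part in splicing and microRNA processing. It stood at -1.42 and -1.85 in JA, -1.16 and -1.35 in JB, and -0.38 and -0.57 in Amy. All arrays were below 0, and both Amy arrays lay nearer to 0 than any JA or JB array. The mean was -1.12 ± 0.59 (SD, n = 3 lines; adjusted p = 0.0138), and the call was lost without JA (0.0799). Its 2 clones stood at -1.25 and -0.99.

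RBM proteins, a loose group that shares RNA recognition motifs, moved both ways: 3 of 10 were higher and 4 lower (30% and 40%, against 20.7% and 32.8% of all features), with a median of -0.069. Rbm3, a cold-inducible RNA-binding protein, stood at 1.58 and 0.56 in JA, 1.29 and 0.46 in JB, and 1.07 and 0.59 in Amy. The Cy3 array was the higher of each pair, and all arrays were above 0; the mean was 0.93 ± 0.13 (SD, n = 3 lines; adjusted p = 0.00307). Rbm17, a splicing factor of 3′ splice sites, stood at 0.66 and 0.91 in JA, 0.69 and 0.93 in JB, and 0.28 and 0.64 in Amy. JA and JB overlapped and lay above Amy within each dye, with a mean of 0.68 ± 0.20 (adjusted p = 0.00992; 0.0705 without JA). Rbm14, a nuclear coactivator found in paraspeckles, had a mean of 0.52 ± 0.13 (adjusted p = 0.0179), lost without JA (0.101) or Amy (0.0543).

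The RBM genes that were lower changed by less than 2-fold. Rbm12 stood at -0.96 and -0.59 in JA, -0.81 and -0.70 in JB, and -1.04 and -0.57 in Amy. The lines nearly coincided, and the mean was -0.78 ± 0.028 (SD, n = 3 lines; adjusted p = 0.00405). Rbm24, a splicing regulator of striated muscle, stood at -0.63 and -0.34 in JA, -0.77 and -0.46 in JB, and -1.11 and -0.82 in Amy. Amy was the lowest line on both dyes, and the mean of -0.69 ± 0.25 (adjusted p = 0.0124) did not pass without Amy (0.0595). Rbm20, the regulator of titin splicing in the heart, had a mean of -0.48 ± 0.09 (adjusted p = 0.0201), but its average was -0.065 over the Cy3 arrays and -0.89 over the Cy5 arrays. Its call was lost without JA (0.103), without Amy (0.0906), on the Cy3 arrays (0.747) and with the line as a random block over the 6 arrays (0.0911). It was also lost without the Cy5 array of JA (-0.29, 0.176), of JB (-0.31, 0.221) or of Amy (0.0515). The 4 muscle markers Des, Myl1, Myl11 and Tpm1 were lower as well, from -5.11 to -1.82, and their part in the ratios of Rbm20 and Rbm24 was not tested.

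Rbm39, a splicing factor and coactivator, had line means of -0.56 in JA, -0.51 in JB and -0.49 in Amy and a mean of -0.52 ± 0.037 (adjusted p = 0.0137). It lost the call without JA (0.0785), without Amy (0.0597) and on the Cy3 arrays (0.0577). The related splicing regulators Rbm6 and Rbm10 stood at -0.071 ± 0.19 and -0.067 ± 0.26 and Rbm43 at 0.32 ± 0.34; none passed (adjusted p = 0.67, 0.72 and 0.157), but Rbm43 did without JB, at 0.52 (0.0339).

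Of the factors that cut pre-mRNA for polyadenylation, the endonuclease itself was higher. Cpsf3 stood at 0.89 and 0.86 in JA, 1.33 and 1.29 in JB, and 0.55 and 0.57 in Amy. Within each line the dyes lay within 0.04, and JB was highest and Amy lowest; the mean was 0.91 ± 0.38 (SD, n = 3 lines; adjusted p = 0.0097), lost without JA (0.0661). Cpsf6 and Cpsf7, alternative subunits of cleavage factor I, had means of 0.30 ± 0.15 and 0.16 ± 0.031 and did not pass (adjusted p = 0.0962 and 0.275; 0.0341 for Cpsf6 with centred arrays). Pabpc1 was not analysed here.

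The exosome was measured by 2 genes with unclear values. Exosc9 stood at -0.36 and -0.33 in JA, -0.34 and -0.32 in JB, and -0.68 and -0.74 in Amy, a mean of -0.46 ± 0.21 (SD, n = 3 lines; adjusted p = 0.0364) that passed as lower. Its 3 clones stood at -3.02, 0.74 and 0.89, so 1 clone was far below the pool and 2 were above it. With the median over spots the mean was 0.69 (adjusted p = 0.00666) and with the first clone alone 0.89, so the gene's direction is not settled. The call as lower was also lost without JA (0.107), without Amy (0.153), when any 1 of 4 of the 6 arrays was left out (adjusted p from 0.051 to 0.0615), on the Cy5 arrays (0.055) and with centred arrays (0.082). Exosc5 stood at -1.09 and 1.27 in JA, -0.11 and 0.98 in JB, and -0.27 and 0.089 in Amy. Its Cy3 arrays were all below 0 and its Cy5 arrays all above, and the mean of 0.15 ± 0.27 did not pass (adjusted p = 0.437).

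**Figure D3:**
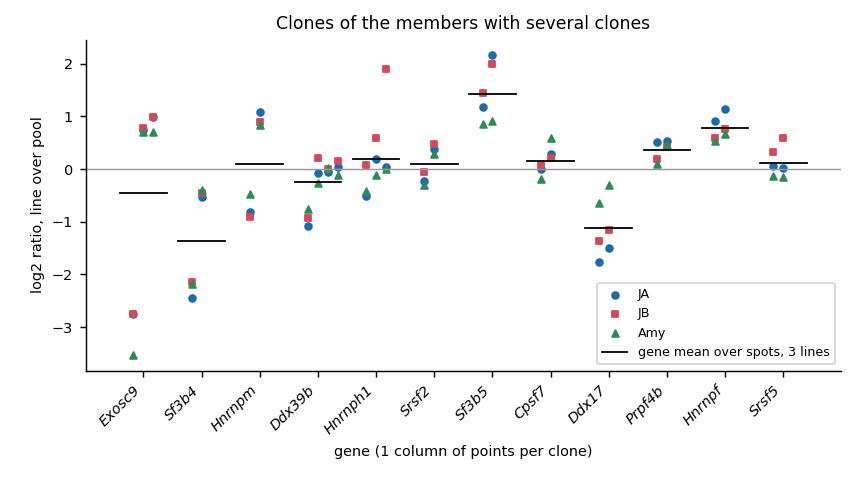
Log2 ratios of the single clones of the 12 members measured by several clones; points are line means of 2 arrays (JA, JB, Amy), each column of points is 1 clone and the black bar is the gene's mean over its spots in the 3 lines. The 3 clones of Exosc9 span 3.90 on the log2 scale, those of Sf3b4 1.80 and those of Hnrnpm 1.67.

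Clones of 1 gene differed in several other cases. The 2 clones of Hnrnpm stood at -0.74 and 0.93, on opposite sides of 0 in every line, so its mean near 0 describes neither; the first clone alone passed as higher (0.00322). The 4 clones of Ddx39b stood at -0.92, -0.046, -0.0083 and 0.029, and those of Hnrnph1 at -0.28, 0.22 and 0.65. Clones of Ddx17, Hnrnpf, Prpf4b and Srsf5 lay at most 0.26 apart. The other 47 genes have 1 clone each and no such check.

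RNA polymerase subunits lay on both sides of the pool: 1 of 6 was higher and 2 were lower, shares of 16.7% and 33.3% that lie near the 20.7% and 32.8% of all features. Polr2c, a core assembly subunit of RNA polymerase II, stood at 2.09 and 2.20 in JA, 1.68 and 2.56 in JB, and 1.74 and 1.74 in Amy. All arrays were above 1 and Amy was lowest in the line means; the mean was 2.001 ± 0.23 (SD, n = 3 lines), or 4-fold (adjusted p = 0.000518). Polr2k, a small zinc-binding subunit that polymerases I, II and III share, stood at -1.91 and -1.74 in JA, -1.81 and -1.71 in JB, and -1.72 and -1.51 in Amy. The lines overlapped, with a mean of -1.73 ± 0.11, 3.33-fold below the pool (adjusted p = 0.000489). Polr2f, which is also shared by polymerases I, II and III, stood at -0.56 and -0.56 in JA, -0.42 and -0.40 in JB, and -0.46 and -0.42 in Amy. Its arrays were nearly the same, and the mean of -0.47 ± 0.079 passed (adjusted p = 0.0207) but not without JA (0.108) or Amy (0.0784). The log2 ratio of Polr2c exceeded that of Polr2k by 3.25 to 4.27 on every array.

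The remaining polymerase genes did not pass. Polr3k, a subunit of polymerase III, had a mean of -0.30 ± 0.30 (adjusted p = 0.154) and passed as lower without JB, at -0.48 (0.0441), and on the Cy5 arrays (0.0448). The mitochondrial RNA polymerase Polrmt stood at 0.26 ± 0.24 (adjusted p = 0.174) and Polr2m, a protein that associates with polymerase II, at 0.18 ± 0.023 (adjusted p = 0.218); both were higher in Cy3 than in Cy5 in every line, and Polrmt passed as higher on the Cy3 arrays (0.0196). Polr2a was not analysed here.

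Of the 59 genes, 34 had 1 sign on all 6 arrays (57.6%, against 55.9% of all features), 24 above 0 and 10 below. All 21 genes called higher and 9 of the 10 called lower were among them, the exception being Rbm20; of all features called higher 92.7%, and of those called lower 90.5%, had 1 sign as well. Features called with 1 sign made up 19.2% (higher) and 29.7% (lower) of all features. In 9 genes (15.3%, against 16.0% of all features) the dye-swapped arrays of a line lay more than 1 apart. None was an hnRNP, SR, helicase or Cpsf gene. They were Lsm10, Npm1, Exosc5, Nop53, Snrpn, Polr2m, Snrpd1, Rbm20 and Rbm3, and only the last 3 of these were called. Of the 21 higher genes 18, and of the 10 lower genes 7, passed on the arrays of each dye alone. This count was not made over all features. On the Cy3 arrays 37.3% and 13.6% of the 59 were called higher and lower, against 20.7% and 29.7% of all features. On the Cy5 arrays these shares were 37.3% and 16.9%, against 19.2% and 32.1%.

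**Figure D4:**
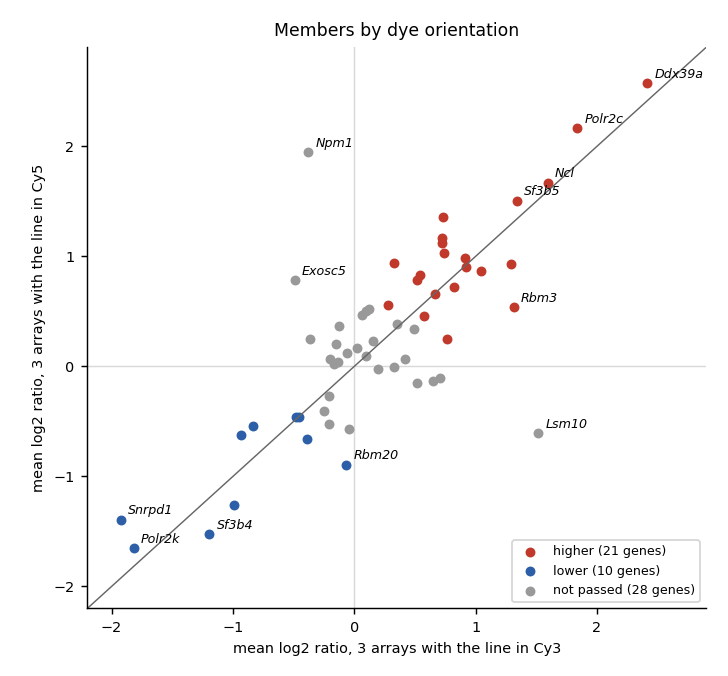
Mean log2 ratio (line over pool) of each of the 59 genes over the 3 arrays with the line in Cy3 (x axis) and in Cy5 (y axis), coloured by call; the diagonal marks equal values. Ddx39a, Polr2c, Ncl and Polr2k lie near the diagonal, whereas Npm1, at -0.38 and 1.95, and Lsm10, at 1.52 and -0.61, lie far from it.

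The calls that held most widely came from 7 genes. Ddx39a, Polr2c, Hnrnpl and Rbm3 stayed higher and Polr2k, Sf3b4 and Rbm12 stayed lower without any 1 line or array, on each dye alone, with centred, scaled or quantile-normalized arrays, with a spread for the pool and without moderation of the variances. Rbm3 was not part of the alternative that leaves out genes whose dyes disagree. Sf3b4 has 2 clones, at -2.26 and -0.46, and only its first clone was fitted alone. Without any 1 line, 12 of the 21 higher and 4 of the 10 lower genes kept the call. The matching count over all features was not made, so whether such a loss is usual on these arrays cannot be told.

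The second comparison asked how the 3 tumor lines differ in these genes. No member differed in 1 line from both others by at least 1 on both dyes, a size reached, as higher and as lower, by 0.0696% and 0.292% of all features in JA, 1.3% and 0.696% in JB and 0.306% and 0.195% in Amy. At 0.5, 6 genes did: Hnrnph1 and Nop58 were higher and Ddx50 was lower in JB, Ddx17 was higher and Sf3b5 lower in Amy, and Lsm10 was lower in JA. Among all features this smaller size was reached by 4.65% as higher and 2.92% as lower in JB, 1.99% and 1.94% in Amy, and 1.21% and 1.91% in JA. With 1 RNA sample a line, differences between lines have no test.

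Amy was most often the line nearest to the pool among the genes called higher. Of these 21 genes, Amy had the lowest ratio in 16 (76.2%), JB in 3 and JA in 2, against 50.7%, 34.0% and 15.3% of the 1487 features called higher. JA had the highest ratio in 13 of the 21 (61.9%), JB in 8 (38.1%) and Amy in none, against 52.4%, 30.3% and 17.3% of those features. Over all 59 genes, called or not, the order was another: JB was highest in 27, JA in 21 and Amy in 11, and Amy was lowest in 26, JA in 17 and JB in 16. Over all features, called or not, JA, JB and Amy were lowest in 31.8%, 31.3% and 36.9% and highest in 31.7%, 39.2% and 29.2%. Among the 10 members called lower, JA had the lowest ratio in 6 (60%), against 43.9% of features called lower. Ratios of at least 1 on both arrays of a line were reached by 8 members in JA, 6 in JB and 3 in Amy, against 7.42%, 5.93% and 4.97% of all features. Ratios of -1 or lower were reached by 4, 4 and 3 members, against 13.6%, 11.4% and 12% of all features. The medians over the 59 genes were 0.17 in JA, 0.21 in JB and 0.21 in Amy, and over all features -0.14, -0.093 and -0.14. These values describe single lines, which share the pool.

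Other genes of RNA processing and ribosome assembly, from a list that the symbol rule does not reach, were split much like the 59. Of 54 measured, 19 were higher and 9 lower (35.2% and 16.7%, against 20.7% and 32.8% of all features), with a median of 0.31. Without JA the counts were 9 and 5, and 9.87% and 19% of all features were higher and lower. The list was chosen with earlier results of these data known. The highest was Igf2bp2, which binds and stabilizes mRNAs, with line means of 1.96 in JA, 2.63 in JB and 1.53 in Amy and a mean of 2.04 ± 0.56 (SD, n = 3 lines; adjusted p = 0.00206). It was followed by Taf1c, a subunit of the polymerase I selectivity factor, at 1.66 ± 0.24, Pop1 of RNase P and RNase MRP at 1.42 ± 0.36, and the ribosome assembly factors Noc4l and Wdr43 at 1.24 ± 0.28 and 1.13 ± 0.27 (adjusted p from 0.000954 to 0.00307). The lowest was Nvl, an ATPase of large-subunit assembly, with line means of -1.96 in JA, -2.78 in JB and -2.06 in Amy and a mean of -2.27 ± 0.45 (adjusted p = 0.000988). Celf2, a splicing regulator of muscle, brain and lymphocytes, stood at -1.73 ± 0.044, the hnRNP-like protein Raly at -1.54 ± 0.12, the small-subunit assembly factor Utp20 at -1.42 ± 0.34 and the cap-binding protein Ncbp1 at -1.06 ± 0.069 (adjusted p from 0.000431 to 0.00229). Most leukocyte markers and all measured muscle markers were lower too, as given above, and their part in the ratio of Celf2 was not tested. Ribosome assembly factors stood at both ends of this list. The 10 genes named here were picked only among called genes with 1 sign on all 6 arrays. Of the 54 genes, 38 had 1 sign.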

How the data were processed

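The deposited values were log2 ratios, 1 per spot and array, for 16128 spots on 6 two-colour cDNA arrays; the log base is taken, not stated. Scanner, background correction, normalization and spot filter are not given in the sources used here. Each pair of adjacent spots is 1 of 8064 clones. Symbols came from the platform annotation (8084 spots with 1 symbol, 40 with several, 8004 with none), and all 59 members matched RefSeq genes of GRCr8 with 0 symbols changed. Spots were averaged per symbol on each array, then the 2 arrays of a line; no sign was turned.

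For each of 7180 features, limma 3.58.1 (R 4.3.3; lmFit and eBayes with an intercept, two-sided) tested whether the 3 line values averaged 0; p-values were adjusted by Benjamini and Hochberg's method, and 0.05 was the threshold. Since the pool is a single control sample, its own spread does not enter. A p-value reflects how far JA, JB and Amy differ, with each variance drawn toward a value estimated from all features (moderation). For Rbm12, with an SD of 0.028, the moderated standard error was 0.111. Without moderation, 6 of the 59 were called higher and 4 lower. Arrays of 1 dye orientation deviated together (r = 0.613, 0.552 and 0.526 between lines over all features), so the replicate numbers, which are the dye orientation in the labels, pair the arrays. The fits with dye orientation as a block or line as a random block run over 6 arrays with an estimated correlation within a line (0.622 and 0.217), so their p-values also count dye swaps. A run on simulated lines checked only that the fit recovered large added changes. It held no error of the shared pool or of the dyes and counted no false calls. It therefore cannot tell how many calls here are false. The members, the lists and the tests were chosen with earlier results of these data known, so no list was tested as a set. Array values are given for up to 4 called genes per class with 1 sign on all arrays (largest mean in size), and for Ncl, Npm1 and Nop58; this rule for array values also lists Fbl, Nop56, Polr2a, Hnrnpa1, Srsf1 and Pabpc1, which are not among the 59 and not analysed here. Other genes whose array values are printed, and all examples of promoters, clones and pairs, were chosen after their values were seen. Of 217 other RNA processing genes listed, 54 were measured. Up to 5 per direction were named, by size of the mean among those called with 1 sign on all 6 arrays. Alternatives covered array scaling, dye, clone choice, the variance model, thresholds and leaving out lines or arrays.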

Additional observations from a re-analysis of the deposited data

Results flagged for a closer look

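In 7 genes, both arrays of 1 line lay above 0 and both arrays of another line below 0, a difference between lines that was not tested. In Nop53, JA minus Amy was -0.97 and JB minus Amy was -1.20 on the log2 scale, with Amy alone above the pool. In Hnrnph1, JB minus Amy was 1.04, and the clone that carried most of it stood at 2.95 and 0.85 on the 2 JB arrays. In Prpf8, JA minus JB was 0.69, and in Rbm10 it was 0.52, with JA above and JB below the pool. JA minus JB was -0.39 in Dhx57 and -0.38 in Rbm6, with JB above the pool. This sign is weak, since JB stood at 0.009 in Cy3 for Dhx57 and at 0.00076 in Cy5 for Rbm6. In Hnrnpm, JA minus JB was 0.14 and JB minus Amy was -0.19, both small beside the gap between its 2 clones. Such opposed lines were seen for 5 of the 59 genes (8.47%) between JA and JB, 1 (1.69%) between JA and Amy and 3 (5.08%) between JB and Amy, against 5.11%, 4.14% and 7.17% of all features.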

How the results depend on the processing

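Values below give genes called higher, then lower, where counts of 21 and 10 of the 59 and 19 and 9 of the 54 other RNA processing genes were reported. A spread for the pool gave 11 and 4, and 8 and 5. Without moderation of the variances the counts were 6 and 4, and 2 and 3, against 4.18% and 10.3% of all features. A mean of at least 1 in size gave 6 and 4, and 8 and 5, against 7.17% and 14.8% of all features. An adjusted p under 0.01 left 4 of the 59 as lower (6.78%, against 20.8% of all features). Leaving out 1 line gave 13 (without JA) to 23 higher and 5 (without JA) to 11 lower of the 59, and, counting single arrays left out too, 9 to 17 higher and 5 to 10 lower of the 54. The median of the 59, 0.26, became 0.38 with centred arrays, 0.19 on the Cy3 arrays alone and 0.30 with the first clone of each gene; it ranged from 0.22 to 0.29 without 1 line and from 0.17 to 0.26 without 1 array. With the dye orientation as a replicate block, 23 and 10 were called (39% and 16.9%, against 21.7% and 32.8% of all features). Ddx46 and Prpf4b were gained and no other call among the 59 changed. With the line as a random block they were gained too and Rbm20 was lost. Exosc9 turned to 0.89 with its first clone and to 0.69 with the median over spots. The leukocyte marker Cd53 turned to 0.73 on the Cy3 arrays; without 1 array it ranged from -1.08 to 0.13, the latter without the JB array in Cy5. For lines set apart by at least 1, the count was 0 in each direction, also with arrays centred on their median. It was 1 for lower in JB (Npm1) with the dyes averaged, and at 0.5 it was 2 and 1 for higher and lower in JB, 1 and 1 in Amy and 1 for lower in JA. The cause of these shifts was not tested. The number of lines and the unknown spot intensities limit the precision.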
